A study of Mus musculus with 9 samples.

Results

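The collagen genes were taken as every gene whose symbol is Col, a type number, a and a chain number. That rule found 44 genes among the 54532 gene identifiers of the count table. Of these, 11 encode fibrillar collagens, 9 collagens of the basement membrane zone, 6 the type VI chains of beaded filaments, 9 fibril-associated (FACIT) collagens, 3 short chain network collagens, 4 transmembrane collagens and 2 other collagens (Col26a1 and Col28a1). The counts came from RNA sequencing of the submandibular gland, the salivary gland below the jaw, of wild-type (WT) mice. All glands had received 10 Gy of radiation and were collected 30, 60 or 90 days later, with 3 samples at each time. RNA was extracted from 4 sections of 50 µm per sample. No transgene or drug is named for these 9 samples. Non-irradiated glands were not analysed here, so each comparison is between irradiated time points, and time since radiation and age of the mice cannot be told apart. The labels do not say that the 3 samples of a time point came from separate mice, so p-values measure the spread between these samples, which may be technical.

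Collagens are triple helices of 3 chains and are the main structural proteins of connective tissue. Fibrillar collagens I, III and V are made by fibroblasts and form the fibrils that accumulate when an irradiated gland scars. Collagen IV forms the sheet-like network under epithelium and around vessels, collagens XV and XVIII lie at the border of that sheet, and collagen VII anchors it to the stroma. Collagen VI forms beaded microfibrils close to cells, FACIT collagens decorate the surface of fibrils, and transmembrane collagens such as XVII sit in the plasma membrane of epithelial cells. The question for the family was whether its members, by class, differed at the late time point, when fibrosis of the gland would be looked for.

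In these libraries the collagens were present at low to moderate RNA levels and no collagen passed edgeR's test between any time points. DESeq2 called at most 1 collagen in a comparison, and with no filter on low counts up to 3 passed. Together the collagens took between 0.0475% and 0.102% of all counts in a library, while 1 secretory gene, Mucl2, took 31.4% to 42.8%. Library totals ran from 16541396 to 26065856 counts, and a floor of 3 counts corresponded to 0.101 to 0.213 CPM, a limit that covers counting error only. CPM divides a count by the size of its library, here with TMM factors, which set each library against the bulk of its genes. The labelled tissue matched its markers: Mucl2 averaged 374700 CPM and the duct gene Klk1 20420 CPM. Markers of neighbouring tissues were low, with 0.35 to 14.8 summed CPM for sublingual gland, 2.34 to 6.48 for cartilage, 1.61 to 3.07 for skeletal muscle and 1.01 to 2.59 for bone, and Matn3, Myh4 and Ibsp were at 0 in all 9 libraries. Markers of the cells that make collagen were detected, with 384 to 606 summed CPM over 7 fibroblast markers and 63.6 to 93.1 over 6 endothelial markers.

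Of the 44 collagens, 36 had enough counts to be tested. These were 9 fibrillar, 9 basement membrane, 5 beaded filament, 6 FACIT, 2 short chain network, 3 transmembrane and 2 other collagens. The other 8 (Col2a1, Col24a1, Col6a4, Col9a1, Col19a1, Col22a1, Col10a1 and Col25a1) had between 1 and 32 counts in all 9 libraries together. Col2a1 and Col9a1 are chains of cartilage collagens and Col10a1 is known from growth plate cartilage. Col25a1, a transmembrane collagen known from neurons, reached 0.88 CPM in 90-day sample 1 and at most 0.12 CPM in the other 8 libraries.

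Compared per kilobase of annotated exon, the network chain Col4a1 stood highest at 13.4 CPM per kilobase, averaged over the 9 libraries. The fibrillar chain Col3a1 followed at 9.41, Col4a2 at 8.98 and Col1a1 at 8.66 CPM per kilobase. Next came Col15a1 at 6.74, Col6a1 at 6.70, the anchoring fibril chain Col7a1 at 6.33, Col1a2 at 6.04 and Col18a1 at 5.68 CPM per kilobase. The order at the top depended on the length used: by longest transcript Col3a1 ranked 1, at 16.6 CPM per kilobase, Col4a1 ranked 2 at 15.1 and Col1a2 ranked 3 at 14.0. Basement membrane collagens took 41.0% to 47.2% of collagen counts in a library and fibrillar collagens 32.8% to 38.2%. Col1a1, Col1a2 and Col3a1 alone took 27.3% to 32.6% of collagen counts.

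At 90 against 30 days, 0 of 36 collagens had an adjusted p under 0.05 by edgeR's quasi-likelihood test, where 3.57% of all 15224 tested genes did. At an unadjusted p under 0.05 there were 3 collagens, Col16a1 and Col23a1 higher and Col4a4 lower, which is 8.33% of those tested against 16.8% of all genes. DESeq2 called 1 collagen in this comparison, Col16a1, and limma-voom called 0. Leaving out 30-day sample 3 gave 2 calls, Col16a1 and Col18a1, both higher, and leaving out 90-day sample 1 gave Col16a1 higher and Col7a1 lower. The groups did not overlap for 2 collagens that were higher at 90 days (Col8a1 and Col23a1, background 11.4% of genes) and 2 that were lower (Col4a4 and Col6a6, background 11.8%). The 95% interval of the fold change lay inside 1 log2 unit on either side of 0 for 21 of 36 collagens, among them 7 of 9 fibrillar and 7 of 9 basement membrane collagens. That is 58.3% of the collagens, against 72.0% of all genes tested.

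**Figure D1:**
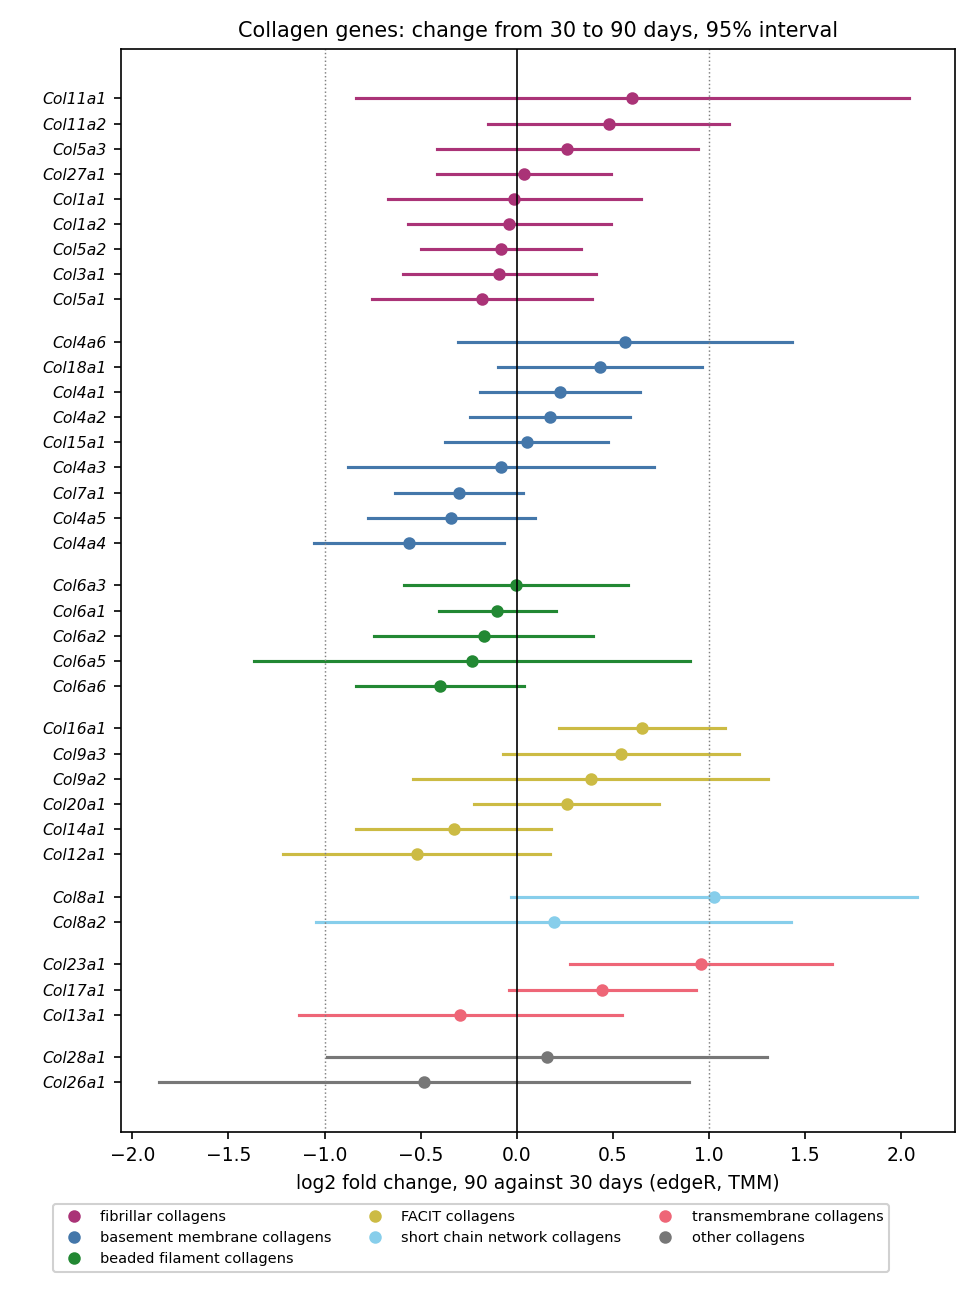
Each point is the log2 fold change of 1 collagen at 90 against 30 days (x axis, edgeR with TMM scaling) and each bar its 95% interval, with the 36 tested collagens in rows, coloured by class. The dotted lines stand at -1 and 1. The points of Col1a1, Col1a2 and Col3a1 lie near 0, and the bars of Col16a1, Col23a1 and Col4a4 leave out 0 although their adjusted p-values were above 0.05.

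For the fibrillar collagens of scar tissue, types I, III and V, the values at the 3 time points overlapped and no change passed edgeR's test. Whether their levels were the same was not tested. Col1a1, the major chain of collagen I (chr11:94936224-94953042, plus strand, GRCm38), stood at 39.3, 55.8 and 84.0 CPM in 30-day samples 1, 2 and 3, at 39.7, 48.9 and 66.0 CPM at 60 days and at 53.7, 67.9 and 56.2 CPM at 90 days. The 30-day samples held both the lowest and the highest value, 2.13-fold apart, and enclosed all values of the later times. Its change at 90 against 30 days was -0.01 ± 0.28 on the log2 scale (SE, 3 samples each), with a 95% interval of -0.67 to 0.64 and an adjusted p of 0.988. Leaving out 30-day sample 3 moved that value to 0.31 (adjusted p = 0.483), and leaving out 30-day sample 1 moved it to -0.24 (adjusted p = 0.775).

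Col1a2, the partner chain of collagen I, stood at 56.6, 71.9 and 103 CPM at 30 days, 56.2, 69.7 and 91.5 CPM at 60 days and 75.5, 84.8 and 65.6 CPM at 90 days. Col3a1 (chr1:45311538-45349706, plus strand, GRCm38), the chain of the thin fibrils of loose stroma, stood at 69.8, 91.9 and 137 CPM at 30 days, 71.5, 81.5 and 99.3 CPM at 60 days and 80.8, 105 and 94.4 CPM at 90 days. In both genes the groups overlapped and 30-day sample 3 was the highest of all 9 libraries. The changes at 90 against 30 days were -0.04 ± 0.23 for Col1a2 (95% interval -0.57 to 0.49, adjusted p = 0.960) and -0.09 ± 0.22 for Col3a1 (95% interval -0.59 to 0.41, adjusted p = 0.898). In this fit of all 9 libraries the 95% interval of Col1a1 reached up to 0.64 on the log2 scale, short of a doubling. That bound holds for this fit only, since the estimate of Col1a1 moved up when 30-day sample 3 was left out.

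Collagen V chains, which nucleate fibrils and set their width, gave the same picture. Col5a1 stood at 7.80, 9.99 and 18.3 CPM at 30 days, 8.81, 10.3 and 10.7 CPM at 60 days and 9.78, 13.3 and 8.73 CPM at 90 days. Its change was -0.18 ± 0.26 (95% interval -0.76 to 0.39, adjusted p = 0.807), and that of its partner Col5a2 was -0.08 ± 0.20 (95% interval -0.50 to 0.33, adjusted p = 0.891). Col11a1, a minor fibrillar chain best known from cartilage, had the largest rise of the class, 0.60 ± 0.64 on the log2 scale (adjusted p = 0.726). It ranged from 0.35 to 5.01 CPM over the 9 libraries and had the widest spread within time points of any collagen tested. The median change of the 9 fibrillar collagens was -0.01, with 4 higher and 5 lower, beside 0.01 for all genes tested.

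That median depended on scaling and on single 30-day libraries. Scaled by library size alone, all 9 fibrillar collagens were higher at 90 days with a median of 0.19, but the median of all 15224 genes moved to 0.24 under that scaling, so relative to it the fibrillar median was below that of all genes. Without 30-day sample 3 the fibrillar median was 0.25, and without 30-day sample 1 it was -0.22. Summed over the class, fibrillar collagens reached 195, 262 and 381 CPM at 30 days, 201, 240 and 297 CPM at 60 days and 255, 307 and 254 CPM at 90 days. The means were 279 ± 94.0, 246 ± 48.7 and 272 ± 30.1 CPM (SD, n = 3), and the SD at 30 days was larger than any difference between the means.

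**Figure D2:**
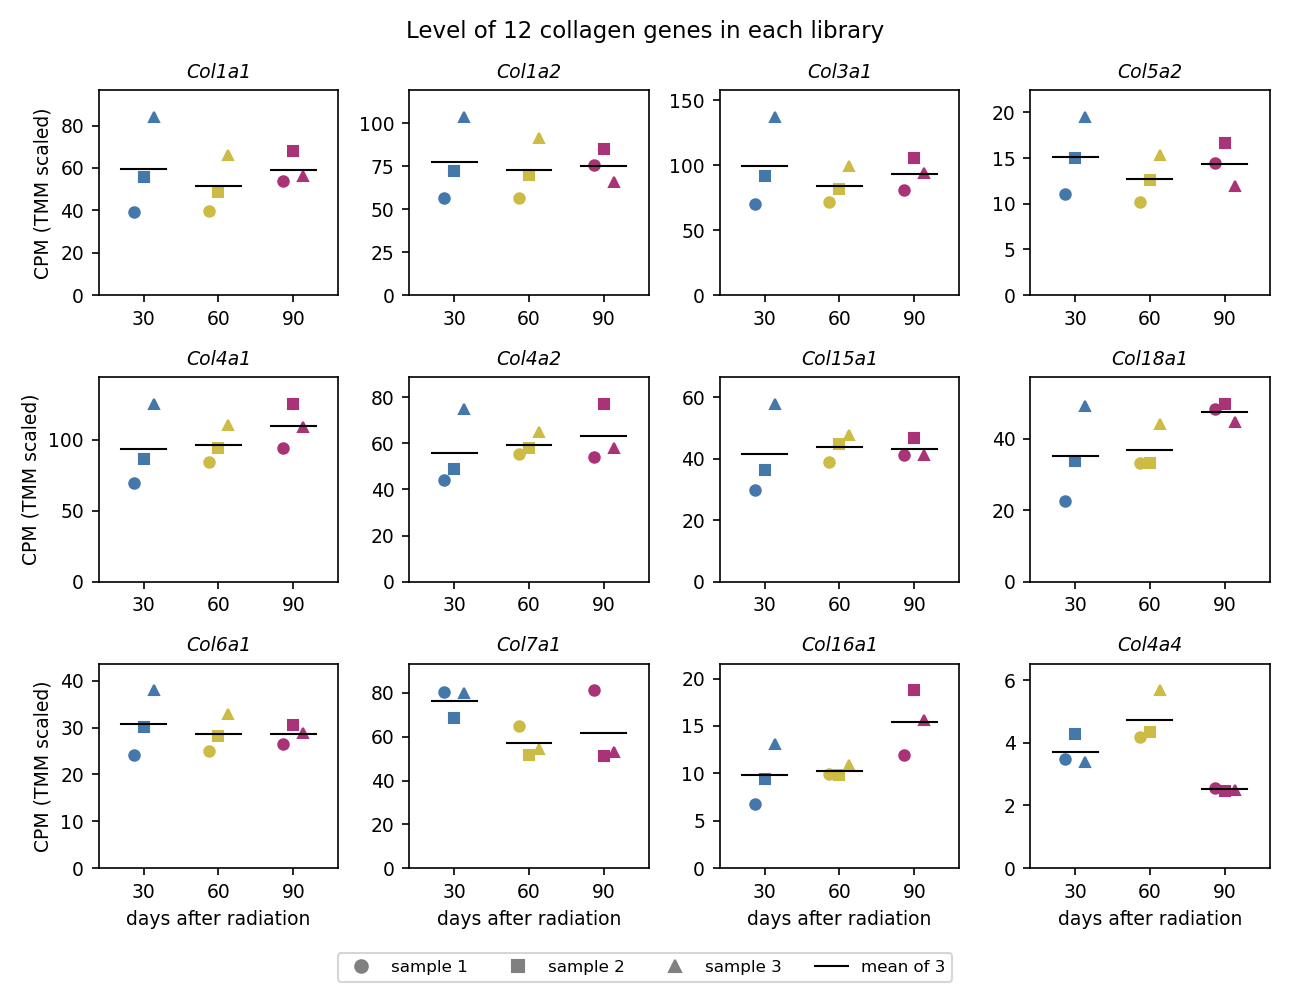
CPM (y axis, TMM scaled, from 0) of 12 collagens in each library against days after radiation (x axis), with circles, squares and triangles for samples 1, 2 and 3 and a line at the mean of 3. The 30-day points of Col1a1, Col1a2 and Col3a1 enclose the 90-day points, while the 90-day points of Col4a4 all lie below the other 6.

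At 60 days most fibrillar estimates lay below the 30-day level without passing the test. In the comparison of 60 with 30 days, 0 of 36 collagens passed by edgeR, where 1.56% of all genes did. DESeq2 and limma-voom also called 0, and 3 collagens had an unadjusted p under 0.05, which is 8.33% against 12.4% of all genes: Col27a1, Col4a5 and Col7a1, all lower. Of the 9 fibrillar collagens 8 had values below 0 and their median was -0.21, beside -0.00 for all genes. Without 30-day sample 3 that median was 0.11. None of the 36 was higher without overlap between groups (background 8.65%), and 2 were lower without overlap, Col7a1 and Col27a1 (background 8.22%).

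Between 60 and 90 days the fibrillar values leaned the other way. Again 0 of 36 collagens passed by edgeR, where 0.256% of all genes did, and 5 had an unadjusted p under 0.05, which is 13.9% against 10.8% of all genes. DESeq2 called 1, Col4a4, and limma-voom called 0. Of the 9 fibrillar collagens 8 had values above 0 and the median was 0.18, beside 0.00 for all genes. The 2 comparisons share the 60-day libraries, so a low value at 60 days enters both with opposite sign. Without overlap between groups, 4 collagens were higher at 90 days (Col16a1, Col18a1, Col20a1 and Col27a1, background 8.3%) and 1 was lower (Col4a4, background 7.64%).

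Col27a1, a fibrillar collagen best known from cartilage, was named after its values were seen because it had the smallest p of the class. It stood at 5.46, 4.93 and 5.68 CPM at 30 days, 2.46, 3.62 and 4.05 CPM at 60 days and 5.43, 5.91 and 5.12 CPM at 90 days. All 3 of its 60-day values were below the other 6. The change was -0.67 ± 0.22 at 60 against 30 days (adjusted p = 0.187) and 0.70 ± 0.22 at 90 against 60 days (adjusted p = 0.248). Against the mean of 30 and 90 days, 0 of 36 collagens differed at 60 days (edgeR, background 0.256%), 4 had an unadjusted p under 0.05 (11.1% against 9.45% of all genes), and the adjusted p of Col27a1 was 0.187. DESeq2 and limma-voom called 0 there. In the test of any difference among the 3 times 0 of 36 passed (background 3.29%), 6 had an unadjusted p under 0.05 (16.7% of collagens and 16.7% of all genes), and the smallest adjusted p was 0.0755 for Col4a4, which DESeq2 called.

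The ubiquitous basement membrane chains Col4a1 and Col4a2 had small positive values that did not pass. Col4a1 stood at 69.9, 86.2 and 125 CPM at 30 days, 84.5, 93.9 and 110 CPM at 60 days and 94.2, 125 and 109 CPM at 90 days. Its change at 90 against 30 days was 0.22 ± 0.19 (95% interval -0.19 to 0.64, adjusted p = 0.630). Col4a2, which lies head to head with it on chromosome 8 and shares 22 exon bases with it on the opposite strand, changed by 0.17 ± 0.19 (95% interval -0.24 to 0.59, adjusted p = 0.734). In both genes the 30-day and 90-day values overlapped, with 30-day sample 3 and 90-day sample 2 almost level at the top.

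Collagens XV and XVIII, which carry endostatin domains, differed from each other in their estimates. Col15a1 changed by 0.05 ± 0.19 at 90 against 30 days (95% interval -0.37 to 0.48, adjusted p = 0.931). Col18a1 stood at 22.5, 33.7 and 49.3 CPM at 30 days, 33.2, 33.4 and 44.1 CPM at 60 days and 48.3, 49.8 and 44.7 CPM at 90 days. Its 90-day values all lay above the 60-day values, but the 30-day values reached into them, and the change from 30 days was 0.43 ± 0.24 (95% interval -0.10 to 0.96, adjusted p = 0.404). Without 30-day sample 3 it was 0.75 with an adjusted p of 0.0190. The difference between the 2 genes was not tested.

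The tissue-restricted collagen IV chains were low. Col4a4, a chain of the specialised network of kidney and a few other epithelia, stood at 3.47, 4.28 and 3.37 CPM at 30 days, 4.19, 4.34 and 5.67 CPM at 60 days and 2.56, 2.47 and 2.51 CPM at 90 days. The 90-day samples were the lowest 3 of the 9 and lay close together. The change was -0.91 ± 0.23 at 90 against 60 days (95% interval -1.39 to -0.43, adjusted p = 0.118) and -0.56 ± 0.24 at 90 against 30 days (95% interval -1.05 to -0.07, adjusted p = 0.231). DESeq2 gave an adjusted p of 0.0211 for the first of these. Col4a6, a chain of epithelial and smooth muscle basement membranes, had the largest rise of the class at 90 against 30 days, 0.56 ± 0.40 (adjusted p = 0.539).

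Col7a1 (chr9:108953586-108984875, plus strand, GRCm38), the anchoring fibril chain, was also named after its values were seen. It stood at 80.3, 68.5 and 80.2 CPM at 30 days, 65.0, 51.8 and 54.4 CPM at 60 days and 81.3, 51.5 and 52.9 CPM at 90 days. The 60-day values lay below all 30-day values, while 90-day sample 1 was the highest of the 9 libraries and the other 90-day samples were among the lowest. The change was -0.42 ± 0.16 at 60 against 30 days (95% interval -0.75 to -0.08, adjusted p = 0.271) and -0.30 ± 0.16 at 90 against 30 days (95% interval -0.63 to 0.03, adjusted p = 0.355). Without 90-day sample 1 the latter was -0.55 with an adjusted p of 0.0199. Over the 9 basement membrane collagens the median at 90 against 30 days was 0.05, with 5 higher and 4 lower, and 0.37 without 30-day sample 3. Their summed level was 321 ± 77.4 CPM at 30 days, 310 ± 28.6 at 60 days and 342 ± 24.0 at 90 days (SD, n = 3).

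The beaded filament collagens had the lowest median change at 90 against 30 days among classes with 5 or more tested members, and 0 of 5 passed. Col6a1 stood at 24.1, 30.0 and 38.0 CPM at 30 days, 25.0, 28.2 and 32.9 CPM at 60 days and 26.5, 30.5 and 28.9 CPM at 90 days, with overlapping groups. Its change at 90 against 30 days was -0.10 ± 0.14 (95% interval -0.41 to 0.20, adjusted p = 0.798). Col6a2 changed by -0.17 ± 0.25 and Col6a3 by -0.00 ± 0.26. Col6a6 had the largest fall of the class, -0.40 ± 0.21 (adjusted p = 0.352), from 4.61, 5.23 and 5.74 CPM at 30 days to 3.84, 4.02 and 3.97 CPM at 90 days. All 5 tested members had values below 0 with a median of -0.17. Scaled by library size, 3 of the 5 were above 0 and the median was 0.03, but the median of all genes was 0.24 under that scaling. With TMM scaling and 1 library left out, the median of the class ran from -0.35 to 0.07.

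Among the FACIT collagens, Col16a1 came nearest to the threshold of any collagen at 90 against 30 days. It encodes a collagen found near fibrils and basement membranes. It stood at 6.80, 9.45 and 13.1 CPM at 30 days, 9.93, 9.86 and 10.9 CPM at 60 days and 11.9, 18.8 and 15.7 CPM at 90 days. The 90-day values lay above all 60-day values, and 30-day sample 3 lay above 90-day sample 1. The change was 0.65 ± 0.20 at 90 against 30 days (95% interval 0.22 to 1.08, adjusted p = 0.0930) and 0.59 ± 0.20 at 90 against 60 days (adjusted p = 0.288). Of 18 other settings 5 brought it under 0.05 at 90 against 30 days, and adjusted p over the 18 ran from 0.0026 to 0.386.

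The rest of the class pointed both ways. Col12a1, a coat protein of collagen I fibrils, had the largest fall, -0.52 ± 0.33 (adjusted p = 0.462). Col9a3 and Col20a1, named after their values were seen, changed by 0.54 ± 0.29 (adjusted p = 0.367) and 0.26 ± 0.23 (adjusted p = 0.637). Both share exon bases with another gene in the annotation, 234 bases with Tcfl5 for Col9a3 and 79 bases with BX649560.1 for Col20a1, and the counting rule for shared reads is not given in the sources used here. BX649560.1 itself had 54 to 156 counts per library.

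Of the short chain network collagens, Col8a1, a chain of vascular and corneal sheets, had the largest estimate of any collagen at 90 against 30 days. It stood at 0.78, 0.77 and 0.59 CPM at 30 days, 0.39, 0.59 and 1.04 CPM at 60 days and 1.11, 2.41 and 0.80 CPM at 90 days. All 90-day values lay above the 30-day values, by a narrow gap, and 90-day sample 2 stood apart. The change was 1.02 ± 0.50 (95% interval -0.03 to 2.08, adjusted p = 0.316). Its partner Col8a2 changed by 0.19 ± 0.59 (adjusted p = 0.917). In the class named other, Col28a1 changed by 0.16 ± 0.55 and Col26a1 by -0.48 ± 0.66, with levels of at most 1.01 CPM.

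The transmembrane class held the second smallest p at 90 against 30 days. Col23a1 stood at 1.35, 1.96 and 1.78 CPM at 30 days, 2.07, 1.45 and 3.05 CPM at 60 days and 2.80, 4.40 and 2.71 CPM at 90 days. The 90-day values lay above the 30-day values, and 60-day sample 3 overlapped them. The change was 0.96 ± 0.33 (95% interval 0.28 to 1.64, adjusted p = 0.118). Col17a1, the hemidesmosome collagen of basal epithelial cells, named after its values were seen, changed by 0.44 ± 0.22 (95% interval -0.04 to 0.93, adjusted p = 0.349), and Col13a1 by -0.29 ± 0.40 (adjusted p = 0.788). As a share of collagen counts the class took 2.23% to 2.55% at 30 days, 2.58% to 3.00% at 60 days and 2.92% to 3.45% at 90 days. Its summed CPM overlapped among times: 12.8, 17.8 and 24.0 at 30 days, 15.8, 19.5 and 24.5 at 60 days and 25.6, 27.8 and 21.3 at 90 days. Col17a1 made up most of the class, averaging 16.8 CPM over the 9 libraries, against 2.40 for Col23a1 and 1.68 for Col13a1.

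The tested markers of myoepithelial and basal cells were higher at 90 than at 30 days. Their summed level was 98.5 to 132 CPM at 30 days, 133 to 144 at 60 days and 135 to 211 at 90 days. All 5 tested markers of 6 were higher at 90 than at 30 days with an unadjusted p under 0.05, against 16.8% of all genes. By the adjusted p 1 rose (background 3.57%), Trp63, a transcription factor of basal cells, by 0.92 ± 0.21 (adjusted p = 0.0289). Other epithelial markers moved in the same comparison, with the same backgrounds. All 5 duct markers were higher (median 0.86), with 2 called and 4 at an unadjusted p under 0.05. Of 6 acinar markers 5 were lower and 1 was higher (median -0.48). Of these 3 were called, 2 lower and 1 higher, and 5 had an unadjusted p under 0.05. The part of any of these cells in the values of Col17a1 and Col23a1 was not tested. Sublingual gland markers also stood higher in some later libraries, up to 14.8 summed CPM in 90-day sample 2, which was also the highest library for Col8a1, Col16a1 and Col23a1, and B cell markers reached 5.16 CPM there against at most 0.54 CPM elsewhere. Their part was not tested either.

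The collagens differed more between the samples of 1 time point than most genes did. The pooled SD within time points, on log2(CPM + 0.5), had a median of 0.334 over the 36 collagens, 0.339 over the fibrillar and 0.294 over the basement membrane collagens, and 0.207 over all genes tested. At 10 to 200 CPM the median was 0.335 for 16 collagens and 0.147 for 7198 genes. The steadiest collagens were Col4a3 at 0.137, Col6a6 at 0.143 and Col4a4 at 0.158, and Col11a1 varied most at 0.817. These medians are descriptions, since collagens of 1 library share that library.

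Within a time point the collagens mostly ranked the libraries alike. At 30 days sample 1 was the lowest of 3 for 24 of 36 collagens (66.7%, against 37.7% of all genes) and sample 3 the highest for 26 (72.2%, against 33.7%). At 60 days sample 1 was lowest for 25 (69.4%, against 38.7%) and sample 3 highest for 28 (77.8%, against 36.7%). At 90 days sample 2 was highest for 25 (69.4%, against 34.3%) and sample 3 lowest for 19 (52.8%, against 32.1%). All 5 tested beaded filament collagens followed the order at 30 days, while Col7a1 followed it at no time point.

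As a sum, fibroblast markers ranked the libraries like the sum of fibrillar collagens. Their summed level was 442, 510 and 606 CPM in 30-day samples 1, 2 and 3, 468, 513 and 530 CPM at 60 days and 495, 498 and 384 CPM at 90 days. At all 3 times the libraries stood in the same order for this marker sum as for the fibrillar sum. Single markers did not all keep that order. At 60 days Pdgfra and Lum kept it, Pi16 and Mfap5 ran in reverse, and Dpt, Dcn and Gsn did neither. At 90 days Dpt, Dcn and Mfap5 kept it and the other markers did not. Macrophage markers ran from 73.6 CPM in 30-day sample 1 to 161 CPM in 90-day sample 2, with 137 CPM in 30-day sample 3. At 30 days the acinar marker sum was highest in 30-day sample 1, at 532500 CPM against 391400 and 396600 CPM in the other two. In RNA from whole sections, fewer cells of a type and less RNA per cell cannot be told apart, and the part of tissue make-up in the collagen values was not tested.

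Set against the fibroblast markers, the fibrillar sum was 0.442 to 0.629 CPM per marker CPM at 30 days, 0.429 to 0.561 at 60 days and 0.516 to 0.662 at 90 days. The 3 ranges overlapped. One marker, Gsn, made up 43.7% to 61.6% of the marker sum, and its mean was 309 CPM at 30 days and 228 CPM at 90 days. Without Gsn, left out after the data were seen, the marker sum was 186 to 239 CPM at 30 days, 180 to 237 at 60 days and 216 to 249 at 90 days. The fibrillar sum per marker CPM was then 1.05 to 1.60, 1.03 to 1.26 and 1.12 to 1.23, so that the 90-day range lay inside the 30-day range. That marker sum again rested mainly on 1 gene, Dcn, at 120 to 176 CPM over the 9 libraries. Dcn is also on the list of proteoglycans that coat fibrils. The sum of collagen IV chains was 129 to 222 CPM at 30 days, 152 to 196 at 60 days and 162 to 221 at 90 days. Endothelial markers stood at 72.5 to 81.3, 63.6 to 69.9 and 72.9 to 93.1 CPM, and at 60 days their order over the libraries was the reverse of that of collagen IV.

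**Figure D3:**
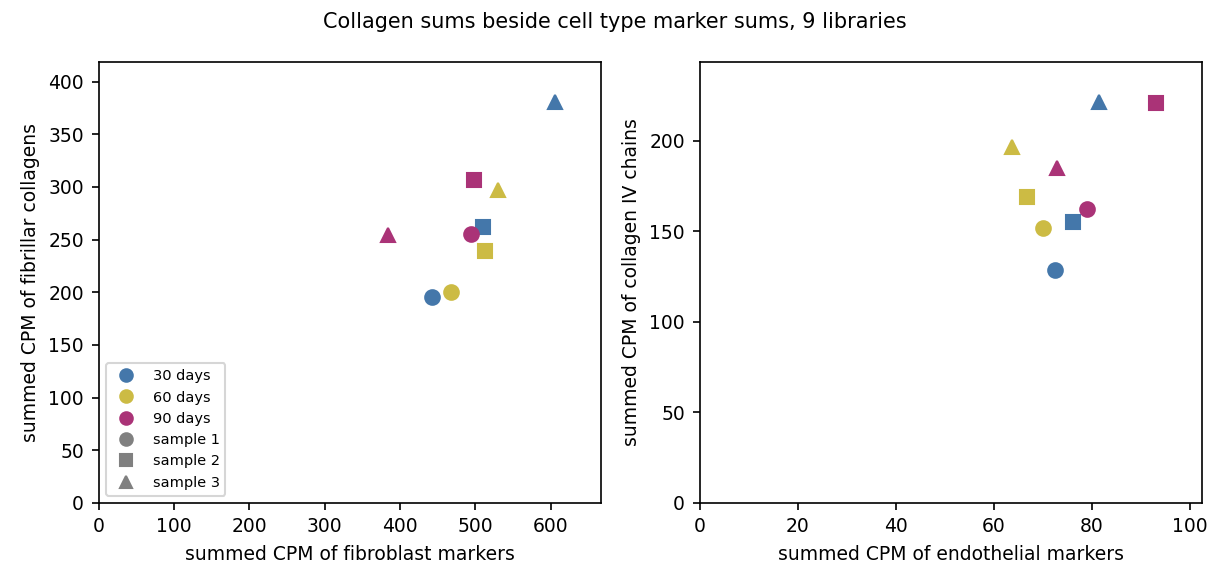
Left, the summed CPM of fibrillar collagens (y axis) against the summed CPM of 7 fibroblast markers (x axis), 1 point per library; right, the same for collagen IV chains and 6 endothelial markers. Colours stand for days after radiation and shapes for sample numbers. The 30-day sample 3 point lies highest on the left, at 381 CPM of collagen and 606 CPM of markers, and the 3 time points overlap in collagen on both sides.

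Because chains of 1 collagen type can be assembled together, ratios of chains were also compared, with each gene's CPM divided by its exon length. Ratios between different collagen types were set beside them: Col3a1, Col4a1 and Col7a1 per Col1a1, and Col17a1 per Col7a1. These pair chains of different proteins, so their ranges do not describe partner chains. Over the 9 libraries Col1a2 per Col1a1 lay between 0.616 and 0.759, a 1.23-fold range, although Col1a1 itself ranged 2.13-fold. Col4a2 per Col4a1 lay between 0.600 and 0.738, and Col3a1 per Col1a1 between 1.01 and 1.20. Looser ratios were Col5a2 per Col5a1, from 0.942 to 1.33, Col6a2 per Col6a1, from 0.452 to 0.646, and Col6a3 per Col6a1, from 0.289 to 0.442. The widest ranges were those of Col17a1 per Col7a1, from 0.199 to 0.708, of Col4a6 per Col4a5, from 0.201 to 0.556, of Col7a1 per Col1a1, from 0.484 to 1.30, and of Col4a4 per Col4a3, from 1.93 to 4.91.

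No ratio differed among time points after adjustment. An exact permutation test over all 280 partitions of the 9 samples, with a smallest possible p of 0.00357, was run for 11 ratios that were chosen after the data were seen. The smallest values of that exact test were p = 0.0643 for Col4a4 per Col4a3 and p = 0.0893 for Col4a6 per Col4a5, both with an adjusted p of 0.491. Col4a6 per Col4a5 was 0.201, 0.209 and 0.214 at 30 days, 0.231, 0.459 and 0.556 at 60 days and 0.333, 0.408 and 0.428 at 90 days. Its 30-day values lay close together below all 6 later values. Col1a2 per Col1a1 gave p = 0.279 and Col4a1 per Col1a1 p = 0.146 in the same exact test.

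Promoters were looked at because the chains ranked the libraries alike. The RefSeq table (GRCm38.p6) held 35 of the 44 symbols with 38 windows of 250 bases upstream of a start. Col3a1 and Col5a1, which ranked the 30-day and 60-day libraries alike, are shown beside Col7a1, which did not follow that order. Capitals mark matches to 3 motifs searched on both strands. The TATA box was spelled TATAAA. The CCAAT box was spelled by its name. The GC box was spelled GGGCGG, and no motif contains another.
Col3a1, chr1:45311288-45311537, plus strand: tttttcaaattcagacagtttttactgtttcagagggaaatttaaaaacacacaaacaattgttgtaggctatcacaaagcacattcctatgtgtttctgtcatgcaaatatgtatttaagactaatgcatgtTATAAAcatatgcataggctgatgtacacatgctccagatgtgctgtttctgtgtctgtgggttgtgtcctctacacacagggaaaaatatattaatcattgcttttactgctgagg
Col5a1, chr2:27886175-27886424, plus strand: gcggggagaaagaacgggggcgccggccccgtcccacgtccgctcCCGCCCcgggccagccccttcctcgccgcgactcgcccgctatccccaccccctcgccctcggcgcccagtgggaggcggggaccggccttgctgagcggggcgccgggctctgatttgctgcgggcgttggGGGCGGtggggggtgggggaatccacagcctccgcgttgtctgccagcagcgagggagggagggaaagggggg
Col7a1, chr9:108953336-108953585, plus strand: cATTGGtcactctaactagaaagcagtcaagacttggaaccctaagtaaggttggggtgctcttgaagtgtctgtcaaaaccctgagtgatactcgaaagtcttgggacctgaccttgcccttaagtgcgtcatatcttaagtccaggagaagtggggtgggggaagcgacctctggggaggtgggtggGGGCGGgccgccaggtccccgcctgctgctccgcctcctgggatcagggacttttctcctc
In the Col3a1 window TATAAA began 117 bases upstream of the start. The Col5a1 window held GC boxes beginning 73 and 205 bases upstream, and the Col7a1 window a GC box at 61 and a CCAAT box on the reverse strand at 249. Of the 38 collagen windows, 5 held TATAAA (13.2%, against 12.4% of 32851 windows of the table), 13 held CCAAT (34.2%, against 33.9%) and 22 held GGGCGG (57.9%, against 32.7%). A match is a run of letters, not a shown binding site.

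Genes that make, bind and degrade collagen were taken from lists, of which collagen processing was the largest. At 90 against 30 days 1 of its 30 tested genes passed by edgeR (background 3.57%), with a median change of 0.10 beside 0.01 for all genes. That gene was Serpinh1, the collagen-specific chaperone Hsp47 of the endoplasmic reticulum. It stood at 22.0, 30.7 and 33.7 CPM at 30 days, 37.9, 32.6 and 31.7 CPM at 60 days and 36.7, 53.4 and 44.5 CPM at 90 days. The 90-day values all lay above the 30-day values, and Serpinh1 rose by 0.64 ± 0.16 (95% interval 0.30 to 0.97, adjusted p = 0.0333). Its adjusted p was above 0.05 without 30-day sample 1 (0.141), 30-day sample 2 (0.0781), 60-day sample 2 (0.0580), 90-day sample 2 (0.169) or 90-day sample 3 (0.103).

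A further 11 processing genes had an unadjusted p under 0.05 only, and those named here were chosen after their values were seen. Above 0 were Lox, a crosslinking enzyme, at 0.80 ± 0.35 (adjusted p = 0.257), Loxl1, Loxl2, the prolyl 3-hydroxylases P3h1 and P3h2, and the procollagen proteinases Bmp1 and Adamts2. Below 0 were Mia2 at -0.50 ± 0.14 (adjusted p = 0.0566) and Mia3, which serve export of large cargo from the endoplasmic reticulum, P4hb at -0.39 ± 0.13 (adjusted p = 0.113), a subunit of prolyl 4-hydroxylase, and Pxdn at -0.45 ± 0.13 (adjusted p = 0.0636), which crosslinks collagen IV. In all, 12 of 30 had an unadjusted p under 0.05, against 16.8% of all genes. DESeq2 called 4 of the list, Serpinh1, Mia2, P4hb and Pxdn, and limma-voom called Serpinh1 only.

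Receptors for collagen showed 0 of 9 tested genes called at 90 against 30 days and 0 with an unadjusted p under 0.05 by edgeR. Over all genes these shares were 3.57% and 16.8%, which also hold for the lists that follow. Ddr1 and Ddr2, the discoidin domain receptors, changed by 0.07 and -0.27. DESeq2 and limma-voom called 0 of the receptors and 0 of the proteoglycans. Among proteoglycans that coat fibrils 0 of 7 passed, 4 had an unadjusted p under 0.05 with positive values (Bgn, Fmod, Lum and Prelp, 0.43 to 0.49), and the median was 0.43. Laminins, nidogens and other basement membrane partners had 0 of 15 called and 2 at an unadjusted p under 0.05, Lamb3 at 0.58 (adjusted p = 0.0549) and Lama5 at -0.32, with a median of -0.04. The list of degradation genes also held the protease inhibitors Timp1, Timp2 and Timp3, so its median of 0.47 covers both kinds. Of its genes 0 of 9 passed and 1 had an unadjusted p under 0.05, the gelatinase Mmp9 at 1.63 ± 0.50 (adjusted p = 0.0775). Mmp9 was low, at 0.71, 0.30 and 0.36 CPM at 30 days and 1.48, 1.62 and 1.05 CPM at 90 days. DESeq2 called Lamb3 and Mmp9, and limma-voom called 0 of either list.

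The list of fibrosis markers other than collagens had 2 of 18 tested genes called at 90 against 30 days by edgeR, both higher (background 3.57%). Thbs1, a matrix protein that can activate latent TGF-beta, stood at 15.4, 24.8 and 22.3 CPM at 30 days, 34.0, 34.5 and 37.6 CPM at 60 days and 40.3, 79.8 and 48.4 CPM at 90 days, and rose by 1.43 ± 0.26 (adjusted p = 0.0203). Tgfb2, one of the TGF-beta ligands, stood at 56.3, 59.4 and 64.7 CPM at 30 days, 84.6, 93.8 and 107 CPM at 60 days and 82.2, 105 and 106 CPM at 90 days. For both genes all 6 later libraries lay above all 30-day libraries. Tgfb2 rose by 0.70 ± 0.12 at 90 against 30 days (adjusted p = 0.00238) and by 0.66 ± 0.12 at 60 against 30 days (adjusted p = 0.00586), the 1 call of the list in that comparison by edgeR (background 1.56%) and by limma-voom. DESeq2 also called Thbs1 at 60 against 30 days (adjusted p = 0.0171), as did 4 other settings. Thbs1 at 90 against 30 days had an adjusted p above 0.05 without 30-day sample 1 (0.0541), 60-day sample 1 (0.0604) or 60-day sample 3 (0.0509), while Tgfb2 passed in all 18 alternatives.

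The list of fibrosis markers was chosen with earlier results of these data known, so its shares are descriptions. Its members Cthrc1 and Lrrc15, at most 0.53 and 0.13 CPM in a library, had too few counts to be tested. Of the 18 tested fibrosis markers 17 had values above 0 at 90 against 30 days, with a median of 0.33, and 7 had an unadjusted p under 0.05. Of all genes tested, 52.1% had values above 0, with a median of 0.01, and 16.8% had an unadjusted p under 0.05. Besides Thbs1 and Tgfb2 these were Spp1 at 1.66 ± 0.43 (adjusted p = 0.0534), Tnc at 1.02 ± 0.42 (adjusted p = 0.218), Ccn2 at 0.90 ± 0.23 (adjusted p = 0.0574), Postn at 0.72 ± 0.25 (adjusted p = 0.179) and Acta2 at 0.47 ± 0.14 (adjusted p = 0.0632). Among the 90-day libraries sample 2 was the highest for each of the 7 but Tgfb2. Ccn2 stood at 28.5 CPM there, against 17.8 and 17.9 CPM in samples 1 and 3, while Postn was near level in samples 2 and 3, at 101.2 and 100.5 CPM. That library also had the highest sublingual and B cell marker sums, and its part was not tested. Acta2 is also a gene of myoepithelial cells and vascular smooth muscle, and Tnc, Postn and Fn1 encode matrix proteins of scars. Fn1 stood at 0.12 ± 0.28. DESeq2 called 6 of the 18, all but Tnc of these 7, and limma-voom called Thbs1 and Tgfb2. Whether these genes and the fibrillar collagens differ in their change was not tested.

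**Figure D4:**
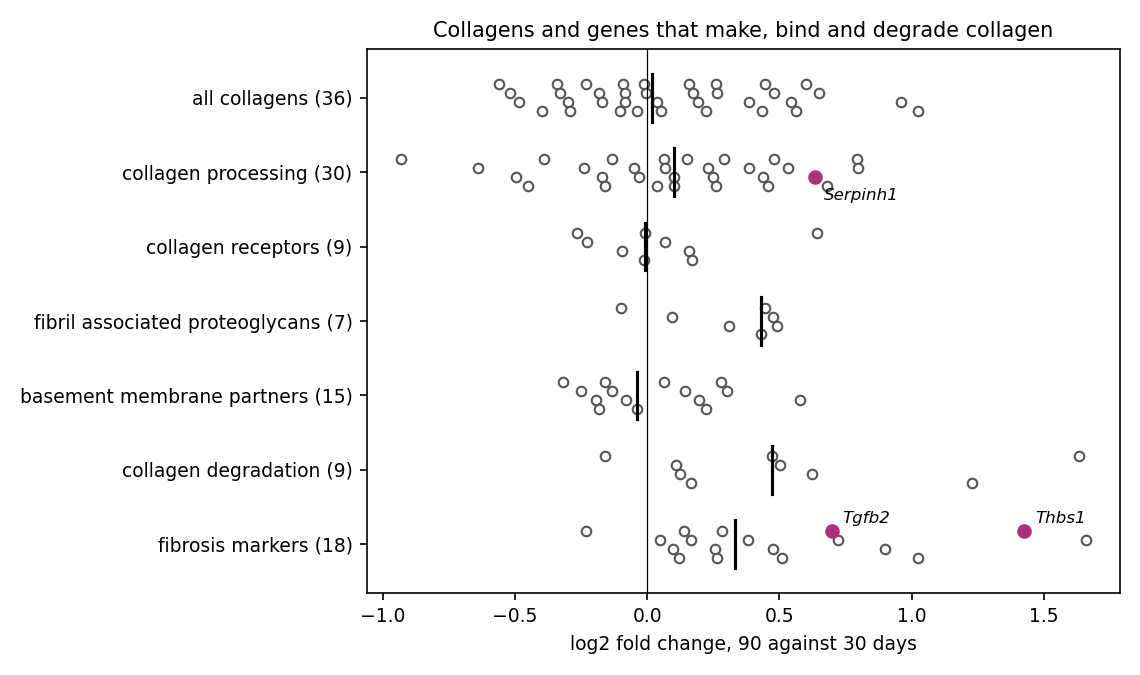
Log2 fold change at 90 against 30 days (x axis) of each tested gene of the collagen family and of 6 lists (y axis, number of genes in brackets). Filled points had an adjusted p under 0.05 by edgeR and are named, open points did not, and vertical bars are medians. No collagen point is filled, and the filled points are Serpinh1, Tgfb2 and Thbs1.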

How the data were processed

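RNA sequencing counts of 9 libraries were used, 3 at each of 30, 60 and 90 days. The authors deposited raw read counts per Ensembl gene identifier. The submitters' processing notes name fastp, STAR, featureCounts and the build mm10; their roles, the annotation and the use of strand are not given in the sources used here. A further 3 columns of the table match no sample and were not used. Symbols were found for 54409 identifiers, and GENCODE mouse release 21 (GRCm38), which holds 54495, gave positions and exon lengths.

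Genes were filtered with filterByExpr (minimum count 10), scaled with TMM and tested with edgeR 4.0.16 (R 4.3.3), quasi-likelihood, robust, 1 term for time point over all 9 libraries, with Benjamini-Hochberg adjustment over 15224 genes and a threshold of 0.05. The common biological coefficient of variation was 0.150. Changes are log2 ± SE of the later against the earlier time. The fit was tested on counts simulated for 90 against 30 days with 200 changed genes. It recovered 66% of changes of 1 log2 unit and 86% of changes of 2 log2 units, and 8.43% of its calls were false. The changed genes were drawn from all tested genes, so these shares are not those of collagens. Collagens had a wider spread within time points, a median SD of 0.334 against 0.207 for all genes, and their recovery was not simulated apart. Exact permutation tests used scipy 1.17.1. Alternatives were RLE and library-size scaling, DESeq2 1.42.0, limma-voom (limma 3.58.1), other filters, the 6 samples of a comparison alone, thinned counts, a block for sample number and leaving out each library.

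Samples were grouped by the day in their titles. Named collagens were 12 set chains, any collagen that passed, and the largest rise and fall in each class; list genes were those that passed. The members, classes and lists were chosen with earlier results of these data known. Col21a1, listed as a FACIT collagen, was not analysed here.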

Additional observations from a re-analysis of the deposited data

How the results depend on the processing

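The counts of collagens that passed were more often above 0 under some settings, and the cause was not tested. DESeq2 called 1 collagen at 90 against 60 days, 1 at 90 against 30 days and 1 in the test of any difference. With no filter on low counts 1 collagen passed at 60 against 30 days (Col7a1), 2 at 90 against 60 days, 3 at 90 against 30 days (Col16a1, Col17a1 and Col18a1) and 3 in the test of any difference. Counts thinned to the smallest total gave 1 (Col4a4) in the test of any difference. Leaving out 1 library gave 0 to 2 collagens at 90 against 30 days and 0 to 2 in the test of any difference.

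The number of all genes that passed moved too. At 60 against 30 days it was 90 with library-size scaling, 376 with DESeq2, 459 with no filter and 73 to 249 with 1 library left out, beside 238. At 90 against 60 days it was 150 with DESeq2, 354 with no filter and 16 to 101 with 1 library left out, beside 39. At 90 against 30 days it was 867 with DESeq2, 1045 with no filter and 189 to 714 with 1 library left out, beside 544. For any difference it was 277 with library-size scaling, 847 with DESeq2, 1194 with no filter and 225 to 681 with 1 library left out, beside 501. For 60 days against the mean of the others it was 20 with library-size scaling, 148 with DESeq2, 230 with no filter and 13 to 81 with 1 library left out, beside 39.

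The sample numbers were also tried as a replicate block, although they do not pair the samples: of 9 same-numbered pairs 1 had a correlation of deviations over 0.1, and 4 of 9 libraries matched best with their own number. With the block 1 collagen (Col16a1, adjusted p = 0.0321) passed at 90 against 30 days and 1 in the test of any difference, and 92 genes passed at 90 against 60 days and 73 at 60 days against the mean.

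Of 426 alternative class medians 413 moved by less than the spread between libraries, and of 120 class sums 116 did. The exceptions were small classes and scaling. The median of the 2 short chain collagens at 90 against 30 days was 0.86 with library-size scaling and 0.37 to 0.88 with 1 library left out, and at 90 against 60 days 0.31 to 0.82. That of Col26a1 and Col28a1 at 90 against 30 days was 0.083 with library-size scaling, -0.37 with thinned counts and -0.54 to 0.065 with 1 library left out, and at 90 against 60 days 0.34, -0.13 and -0.24 to 0.37. Scaled by library size the 90-day sums were 378 CPM for basement membrane, 99.5 for beaded filament, 47.4 for FACIT and 857 for all collagens. Serpinh1 lost its call at 90 against 30 days in 6 of 18 alternatives, Thbs1 in 4 and Tgfb2 in 0. With 3 samples a group, changes of a collagen smaller than its interval could not be told from 0.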
